A study of Homo sapiens with 5 samples.

Results

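LY6D, LY6E, LY6K, LYPD3 and PSCA are small surface proteins of the LY6/uPAR superfamily, and their RNA was followed in KYSE30-Luc-GFP cells from culture to lung colonies. KYSE30 is an established human oesophageal squamous cell carcinoma (ESCC) line, and the derivative used here carries luciferase and green fluorescent protein (GFP). The 5 genes were chosen by name out of 33538 in the count tables, and all 5 were found in each table. They and the gene lists used below were chosen with earlier results of these data known. Counts of called members or list genes beside the share of all genes are therefore descriptions only. The groups were the parental culture and, from NOD SCID mice that received the cells by tail vein, GFP-positive cells sorted out of dissociated lung after 6 h, after 48 h, after 2 months or after 4 months. NOD SCID mice carry the Prkdc scid mutation and lack working B and T cells, and the animals were young when injected. The lungs of several mice went into the libraries at 6 h, 48 h and 2 months, and 1 mouse gave the library at 4 months. All groups derive from a single labelled line.

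Proteins of this superfamily share a fold of loops held by disulphide bonds, and most are tethered to the outer leaflet of the plasma membrane by a glycosylphosphatidylinositol (GPI) anchor. LY6D marks squamous epithelium and is a long-known antigen of keratinocytes and of squamous tumors. LYPD3, also called C4.4A, is expressed in stratified squamous epithelium and binds laminin-332, galectin-3 and AGR2. PSCA, prostate stem cell antigen, is expressed in bladder, oesophagus and stomach as well as in prostate. LY6K is a cancer-testis antigen with a role in sperm fertility, and LY6E is inducible by interferon and known for its part in virus entry.

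Each timepoint was 1 library without a replicate, so that timepoint, library and mice cannot be told apart and libraries or classes of cells were compared without a test. The paper describes enzyme digestion of tissue and magnetic removal of mouse cells for the lungs only. In comparisons of lung with culture, this handling and the stay in the lung cannot be told apart. The quality filter (200 to 8000 genes, at least 1000 unique molecular identifiers (UMIs) and at most 15% mitochondrial UMIs) kept 19986 of 26712 barcodes, with 1149 to 9059 cells per library. Median depth ran from 12979 UMIs per cell at 6 h to 39076 at 48 h, and the UMIs kept per library from 32540023 at 6 h to 204864006 in the parental library. Levels are in CPM, a gene's UMIs summed over cells for each 1000000 UMIs of those cells. Intervals are 95% intervals, exact Poisson for CPM and Clopper-Pearson for percentages of cells, and they cover counting error only. From 1 to 62 cell barcodes were shared by each pair of libraries, and 198 occurred in more than 1 library.

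The libraries differed in their mix of cells, so the members are given over all cells and by class. A cell was called signature-positive when it held at least 1 UMI of C19orf33, S100A14 or RHOD together with at least 1 UMI of CST6, CD44 or TM4SF1, which are 6 of the signature genes of the study and include no member. This class held 1301 of 9059 parental cells (14.4%), and in the lung 97.9% of cells after 6 h, 95.6% after 48 h, 81.1% after 2 months and 98.4% after 4 months. The study picked its signature genes in these same libraries, for detection in most cells at 6 h and in a subgroup of parental cells. The shares of the class in culture and at 6 h therefore follow in part from that choice. The signature-negative remainder was large only in the parental library (7758 cells) and at 2 months (628 cells with a median of 36830.5 UMIs). In the other libraries it was 42, 51 and 71 cells with median depths of 1931, 1818 and 1552 UMIs, so its values there rest on few counts.

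Epithelial identity was present but uneven. Of 6 epithelial markers, 3 reached 10 CPM in culture, 5 did so in both early lung libraries, and 6 in both late ones. KRT5, a keratin of basal cells, went from 0.00488 CPM in the parental library to 556 CPM at 2 months and 1749 CPM at 4 months. Leukocyte markers summed to 1.84 to 35.6 CPM per library, with LYZ at 17.5 CPM at 6 h, while the defining leukocyte gene PTPRC was at most 0.0427 CPM. Endothelial markers summed to at most 0.729 CPM, fibroblast markers to 2.37 to 13.6 CPM and lung epithelial markers to 0.971 to 5.67 CPM. Counts were on a human genome build and the hosts were mice, so these low sums do not measure mouse cells among those sorted. At 48 h the 51 signature-negative cells, with 102119 UMIs, held the fibroblast markers unevenly. COL1A1 was at 3329, COL1A2 at 480 and COL3A1 at 274 CPM, while DCN and LUM had no UMI. Of the epithelial markers these cells held KRT18 at 715, KRT8 at 499 and EPCAM at 58.8 CPM, and no UMI of KRT5, CDH1 or TP63. The signature-positive cells alone gave nearly the same levels of all members at 48 h as all cells did.

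LYPD3 lies on the minus strand of chromosome 19 of GRCh38 from 43460787 to 43465608, with 5 exons in the canonical transcript. Its promoter was the only one of the 5 matched here, and it is shown to place this member, which had the largest ratio between 6 h in the lung and culture, on the genome. The 250 bases before its RefSeq start (GRCh38.p14, chr19:43465609-43465858, minus strand, written 5′ to 3′ in the direction of the gene) had 66.4% G and C, and capitals mark the GC boxes.
LYPD3: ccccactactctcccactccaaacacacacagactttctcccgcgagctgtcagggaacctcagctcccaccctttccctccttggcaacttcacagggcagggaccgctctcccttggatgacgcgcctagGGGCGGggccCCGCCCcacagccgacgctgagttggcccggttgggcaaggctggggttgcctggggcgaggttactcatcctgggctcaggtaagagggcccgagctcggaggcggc
The GC box GGGCGG was searched on both strands and occurred 2 times in this window, once on each strand. It is held by 42.6% of 35116 RefSeq promoters over the same 250 bases. The AP-1 motif TGANTCA, held by 6.57% of promoters, and the grainyhead-like motif AACCNGTT, held by 1.49%, had no match in these letters.

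LY6D was the member with the widest range. Its level was 1.57 CPM (1.4 to 1.75) in the parental library, 35.5 CPM (33.5 to 37.6) at 6 h, 15.05 CPM (13.96 to 16.2) at 48 h, 399 CPM (395 to 404) at 2 months and 1633 CPM (1626 to 1640) at 4 months. No neighbouring intervals in this order overlapped, and the highest library was 1042-fold above the lowest. These levels rest on 321 UMIs in the parental library and 204908 UMIs at 4 months.

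The share of cells with LY6D grew along with its level. With every cell thinned to 3000 UMIs, a UMI of LY6D was found in 0.449% of parental cells (0.321 to 0.611). In the lung it was found in 5.23% of cells after 6 h (4.26 to 6.35), 2.61% after 48 h (1.74 to 3.75), 39.1% after 2 months (37.4 to 40.8) and 75.3% after 4 months (73.99 to 76.6). Without thinning the shares were 2.72%, 16.8%, 22.0%, 62.8% and 89.95%, and 6 h and 48 h stood in the reverse order, with cells at 48 h having the higher median depth. At 2 months the signature-negative cells, which were the deeper class, gave 1.66% after thinning against 47.6% in signature-positive cells of the same library.

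LY6D was unevenly spread over cells. At 2 months 399 cells (12.01%) held at least 10 LY6D UMIs per 10000 UMIs, and at 4 months 2242 cells (49.8%) did, against 0 parental cells, 5 cells at 6 h and 0 at 48 h. The 10% of cells with the most LY6D UMIs held 64.5% of all its UMIs at 2 months and 41.4% at 4 months. The median cell had 0.975 LY6D UMIs per 10000 at 2 months and 9.94 at 4 months, and the upper quartile at 4 months was 25.2.

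LYPD3 was high from the first hours in the lung. Its level was 10.5 CPM (10.1 to 11.0) in the parental library, 452 CPM (444 to 459) at 6 h, 279.6 CPM (275 to 284) at 48 h, 188 CPM (185 to 191) at 2 months and 355 CPM (352 to 359) at 4 months. All lung libraries were above the parental one, with the peak at 6 h and the lowest lung level at 2 months. After thinning it was found in 2.62% of parental cells, and in 54.0% of lung cells after 6 h, 44.9% after 48 h, 32.7% after 2 months and 52.1% after 4 months.

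PSCA stayed low in every library. It measured 9.15 CPM (8.74 to 9.58) in the parental library, 24.9 CPM (23.2 to 26.6) at 6 h, 11.7 CPM (10.7 to 12.7) at 48 h, 24.8 CPM (23.7 to 25.9) at 2 months and 19.9 CPM (19.1 to 20.7) at 4 months. The intervals at 6 h and 2 months overlapped, and the highest library was 2.72-fold above the lowest. Thinned cells with a PSCA UMI made up 2.08% of the parental library and 3.17% to 7.58% of the lung libraries, and at 2 months the 10% of cells with the most PSCA held 77.3% of its UMIs.

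LY6K was high in the lung and, as the class values show, in a minority of cultured cells. Its level was 68.2 CPM (67.1 to 69.3) in the parental library, 425 CPM (418 to 432) at 6 h, 433 CPM (427 to 439) at 48 h, 258 CPM (254 to 261) at 2 months and 291 CPM (288 to 294) at 4 months. The levels at 6 h and 48 h did not differ beyond their intervals. Thinned cells with a LY6K UMI made up 10.6% of the parental library, and 60.6% after 6 h, 69.7% after 48 h, 52.8% after 2 months and 57.1% after 4 months in the lung. It was also the most evenly spread member at 4 months, where the top 10% of cells held 23.1% of its UMIs.

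Over all cells LY6E was the member with the narrowest range and the one that was highest in culture. It measured 370 CPM (367 to 372) in the parental library, 155 CPM (151 to 160) at 6 h, 217 CPM (213 to 221) at 48 h, 318 CPM (314 to 322) at 2 months and 305 CPM (302 to 308) at 4 months. The highest library was 2.38-fold above the lowest, and no neighbouring intervals overlapped. Thinned cells with a LY6E UMI made up 64.8%, 34.6%, 40.6%, 55.8% and 50.4% in the same order of libraries. Within signature-positive cells the order of the members was another one, since LY6E then ran from 154 CPM at 6 h to 480 CPM in culture while LY6K ran only from 291 CPM at 4 months to 434 CPM at 48 h. PSCA was then also highest in culture, at 58.3 CPM against 11.7 to 33.6 CPM in the lung.

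**Figure D1:**
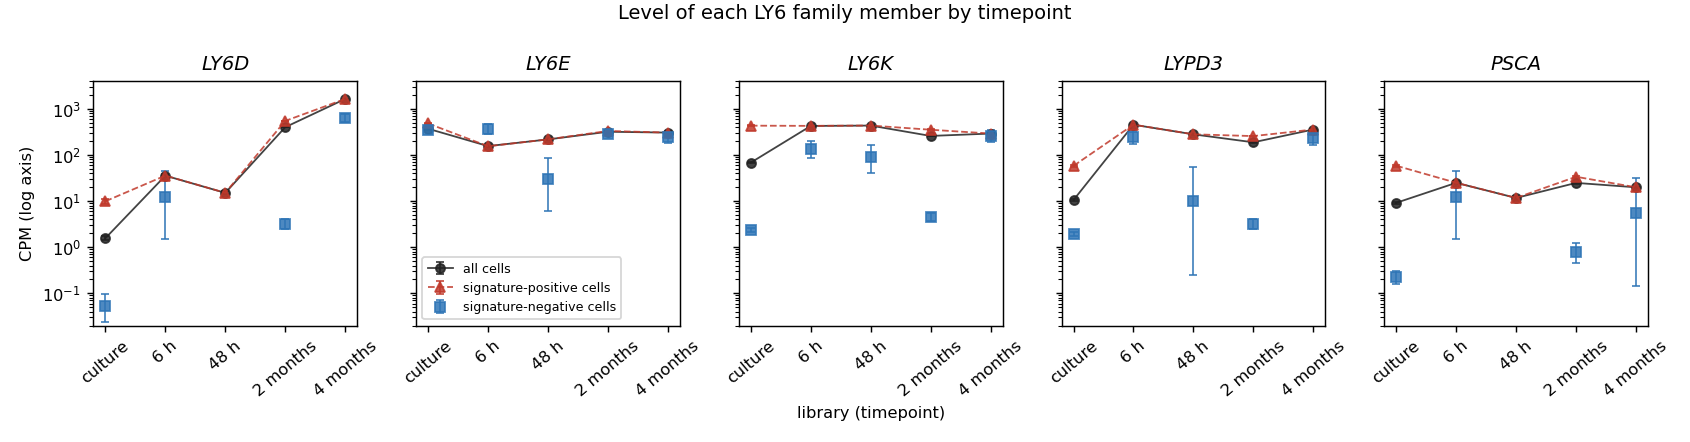
Level of each member in CPM on a log axis in the 5 libraries, over all cells (circles), signature-positive cells (triangles) and signature-negative cells (squares), with 95% Poisson intervals as bars and points with no UMI left out. LY6D climbs from 1.57 CPM in culture to 1633 CPM at 4 months, and the signature-positive parental cells lie near the lung levels for LY6K (431 CPM) but far below them for LYPD3 (58.0 CPM).

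**Figure D2:**
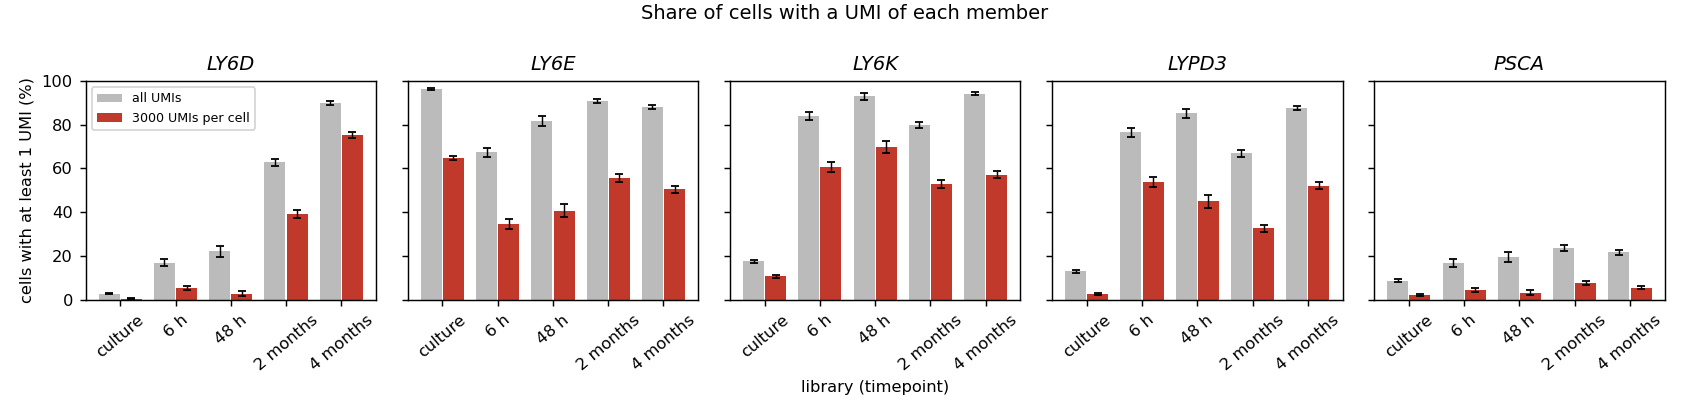
Percentage of cells with at least 1 UMI of each member in the 5 libraries, from all UMIs (grey bars) and with every cell thinned to 3000 UMIs (red bars), with 95% exact binomial intervals. LY6D reaches 75.3% of thinned cells at 4 months, while PSCA stays at 7.58% or less.

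**Figure D3:**
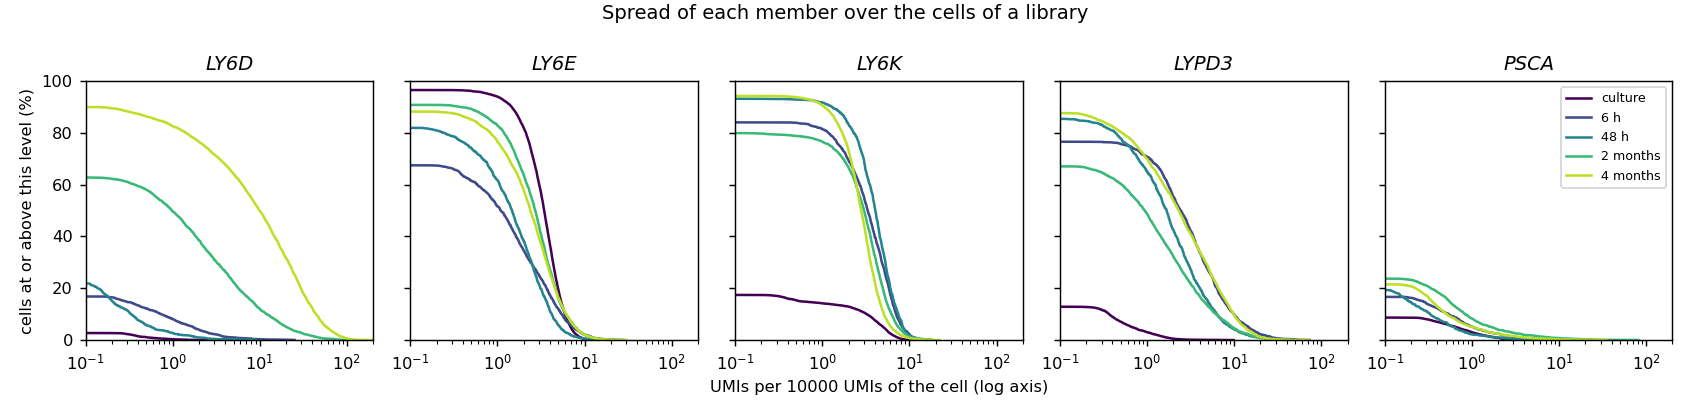
Percentage of cells (vertical axis) that hold at least a given number of UMIs of the member per 10000 UMIs of the cell (horizontal axis, log scale), 1 curve per library. The LY6D curve at 4 months extends far to the right, with 49.8% of cells at 10 or more. For LY6E and LY6K at most 2.1% and 2.04% of the cells of a library reach 10. Their curves differ between libraries, with medians from 1.09 at 6 h to 3.43 in culture for LY6E. For LY6K the medians run from 0 in culture to 4.06 at 48 h.

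The first comparison set cells taken from the lung at 6 h against culture, which differed in handling as well. At 6 h LYPD3 was 42.9-fold higher than in the parental library (41.0 to 44.9), LY6D 22.7-fold (20.02 to 25.7), LY6K 6.23-fold (6.09 to 6.38) and PSCA 2.72-fold (2.50 to 2.95), and LY6E was 2.38-fold lower (2.31 to 2.45). A gene was called when its log2 ratio, with 1 CPM added, was past a 2-fold difference, among genes that reached 10 CPM in 1 or both groups. All 5 members were called, 4 higher and 1 lower, where 44.8% of 8835 genes were called, 18.2% higher and 26.6% lower. The log2 ratio of LYPD3 was 5.29, and 19 of the 8835 genes had a higher one. The median log2 ratio was 2.62 over the members and -0.24 over all genes tested. With equal weight for each cell LY6E, at a log2 ratio of -0.82, was not called.

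Within the parental library the members differed in level between the classes of cells. Signature-positive cells had 431 CPM of LY6K against 2.32 CPM in signature-negative cells, 58.0 against 1.91 CPM of LYPD3, and 58.3 against 0.225 CPM of PSCA. These are ratios of 186-fold (168 to 206), 30.3-fold (26.9 to 34.1) and 259-fold (189 to 366). LY6E, at 480 against 350 CPM, was not past 2-fold. LY6D had 9.91 against 0.0519 CPM, under the 10 CPM minimum. So 3 of the 4 members tested were called, all higher, where 30.7% of 8580 genes were called and 12.8% were higher. The positive class, 14.4% of the parental cells, held 13569 of 13971 LY6K UMIs, 1826 of 2158 LYPD3 UMIs and 1836 of 1875 PSCA UMIs.

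Set within signature-positive cells of both libraries, the comparison of 6 h with culture looked different for each member. LY6K was at 426 CPM at 6 h and 431 CPM in culture, a ratio of 0.989 (0.966 to 1.01). PSCA turned from higher to lower, with 24.9 CPM at 6 h against 58.3 CPM, 2.34-fold lower (2.15 to 2.55). LYPD3 remained higher, at 453 against 58.0 CPM or 7.81-fold (7.44 to 8.20), and LY6D was 3.60-fold higher (3.17 to 4.09). LY6E was 3.11-fold lower (3.02 to 3.22), with 154 against 480 CPM. Hence 2 members were called higher and 2 lower, where 23% of 8057 genes were called, 11.4% higher and 11.6% lower.

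Between 6 h and 48 h the differences were small. LY6D was 2.36-fold lower at 48 h (2.15 to 2.60) and PSCA 2.13-fold lower (1.91 to 2.38), while LYPD3 (log2 ratio -0.69), LY6E (0.48) and LY6K (0.03) were not past 2-fold. These 2 calls stand beside 4.47% of 7755 genes called, with 1.3% of the 7755 lower. The PSCA call was lost with equal weight for each cell (log2 ratio -0.79 in place of -1.03), with 5 CPM added (-0.84), without the deepest 5% of cells (-0.96) and with a minimum of 50 CPM, under which neither gene was tested. In signature-positive cells alone, a comparison chosen after the data were seen, the same 2 members were lower, where 4.43% of genes were called.

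LY6D was the member with the largest late differences. At 2 months LY6D was 26.5-fold higher than at 48 h (24.6 to 28.6) and PSCA 2.12-fold higher (1.93 to 2.34), 2 members of 5 where 24.7% of 8446 genes were called and 10.5% were higher. The PSCA call, at a log2 ratio of 1.02, was lost with 5 CPM added (0.84), with at most 10% mitochondrial UMIs (0.92) and with a minimum of 50 CPM. LYPD3 (log2 ratio -0.57) and LY6K (-0.74) had lower values at 2 months that were not past 2-fold, and in signature-positive cells alone these ratios were -0.13 and -0.30. There LY6D was 36.2-fold higher (33.6 to 39.1) and PSCA 2.88-fold higher (2.62 to 3.17), 2 members where 20.1% of 8212 genes were called and 6.62% were higher. LY6D was then 4.09-fold higher at 4 months than at 2 months (4.04 to 4.14), the only member called, where 11.5% of 7859 genes were called, 3.1% higher and 8.41% lower. LYPD3 was 1.89-fold higher in that step (1.86 to 1.93). The signature-positive comparisons of 2 months with 48 h and of 4 months with 2 months were chosen after the data were seen. Within signature-positive cells, LY6D was 2.99-fold higher (2.96 to 3.03) and LYPD3 1.39-fold higher (1.36 to 1.41) at 4 months than at 2 months, so that LY6D alone was called where 4.11% of 7588 genes were called and 2.07% were higher.

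From culture to 4 months LY6D was 1042-fold higher (934 to 1167), LYPD3 33.7-fold (32.3 to 35.3), LY6K 4.26-fold (4.18 to 4.35) and PSCA 2.17-fold (2.04 to 2.30), while LY6E was not past 2-fold. These are 4 members called where 43.3% of 8650 genes were called, 13.3% higher and 30.1% lower, and 5 genes had a log2 ratio above the 9.31 of LY6D. The PSCA call, at a log2 ratio of 1.04, was lost with 5 CPM added (0.81), without the quality filter (0.99) and with a minimum of 50 CPM. In signature-positive cells LY6D was 165-fold higher (148 to 185) and LYPD3 6.13-fold higher (5.85 to 6.43), but PSCA was 2.93-fold lower (2.76 to 3.12), and neither LY6K nor LY6E was past 2-fold. There 22.4% of 7906 genes were called, 7.93% higher and 14.5% lower. The comparisons share libraries, so they are not independent of each other.

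The 628 signature-negative cells at 2 months had little RNA of 4 of the members. They held LY6D at 3.2 CPM, LY6K at 4.62, LYPD3 at 3.25 and PSCA at 0.778 CPM, against 546, 352, 256 and 33.6 CPM in the signature-positive cells of that library. LY6E was at 284 CPM in them and 331 CPM in the positive cells. Their epithelial keratin KRT18 was at 119.7 CPM, against 1599 CPM over the library as a whole.

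Over all cells more members were detected per cell late than early. The mean number per cell is the sum of the members' single shares, so it does not measure co-detection. In cells thinned to 3000 UMIs, a mean of 0.806 members had a UMI in parental cells, against 1.59 after 6 h, 1.61 after 48 h, 1.88 after 2 months and 2.404 after 4 months. Cells with 4 or 5 members made up 0.303% of the parental library, and 1.31% after 6 h, 1.12% after 48 h, 8.38% after 2 months and 14.2% after 4 months in the lung. Within signature-positive cells the parental library was not the lowest, with a mean of 1.74 members against 1.59 after 6 h, 1.61 after 48 h, 2.17 after 2 months and 2.41 after 4 months. There 2.01% of parental cells had 4 or 5 members, against 1.32% after 6 h, 1.12% after 48 h, 10.2% after 2 months and 14.2% after 4 months. No thinned parental cell had all 5.

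In culture the co-detection followed the class. LY6K and PSCA occurred in the same thinned parental cell 6.40 times as often as the product of their shares gives (5.33 to 7.62), LY6K and LYPD3 5.37 times (4.49 to 6.36), and LYPD3 and PSCA 7.02 times (4.86 to 9.81). Within signature-positive parental cells these ratios were 1.01 (0.838 to 1.20), 0.983 (0.822 to 1.17) and 1.21 (0.825 to 1.70). LY6D with PSCA kept a ratio of 2.55 there (1.39 to 4.27), on 14 cells with both. At 4 months, over all thinned cells, LY6K with PSCA had 1.02 (0.855 to 1.21) and LY6K with LYPD3 1.02 (0.965 to 1.08). LYPD3 with PSCA had 1.12 in those cells (0.937 to 1.33). Pearson's r across parental cells, on log counts per 10000, was 0.62 for LY6K with LYPD3 over all cells and 0.12 within the class. Cells of a library share their preparation, so these r values are descriptions without a test.

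Pearson's r of LY6D with LYPD3 was highest in the late lung libraries. In culture their r was 0.23 over all cells and 0.01 in signature-positive cells. In the lung it was 0.00 after 6 h, 0.16 after 48 h, 0.49 after 2 months and 0.53 after 4 months, and in signature-positive cells 0.38 at 2 months and 0.53 at 4 months. At 4 months 58.6% of thinned signature-positive cells with LY6D had LYPD3 (56.8 to 60.3), against 32.6% of those without LY6D (29.7 to 35.5). At 2 months these shares were 48.6% (45.8 to 51.4) and 32.0% (29.5 to 34.5). At 6 h they were 56.2% (45.8 to 66.4) and 54.2% (51.8 to 56.6). At 48 h they were 60.7% (40.6 to 78.5) and 44.7% (41.6 to 47.7), on 28 cells with LY6D. LY6D was rare in the early libraries, which limits both r and shares there, and a late onset was not tested. The other pairs of LY6D at 4 months had r of 0.11 with PSCA, 0.10 with LY6K and -0.03 with LY6E.

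LY6E had r below 0 with LYPD3 in the 4 lung libraries but not in culture, where it was 0.15 over all cells and 0.03 in signature-positive cells. In the lung their r was -0.23 after 6 h, -0.03 after 48 h, -0.30 after 2 months and -0.20 after 4 months, and -0.34 in signature-positive cells at 2 months. At 6 h 43.2% of thinned signature-positive cells with LY6E had LYPD3 (39.3 to 47.2), against 60.2% of cells without LY6E (57.3 to 62.9). LY6D and PSCA, though rare, were found together 3.4 times as often as their shares give at 6 h (1.86 to 5.71), on 14 cells.

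**Figure D4:**
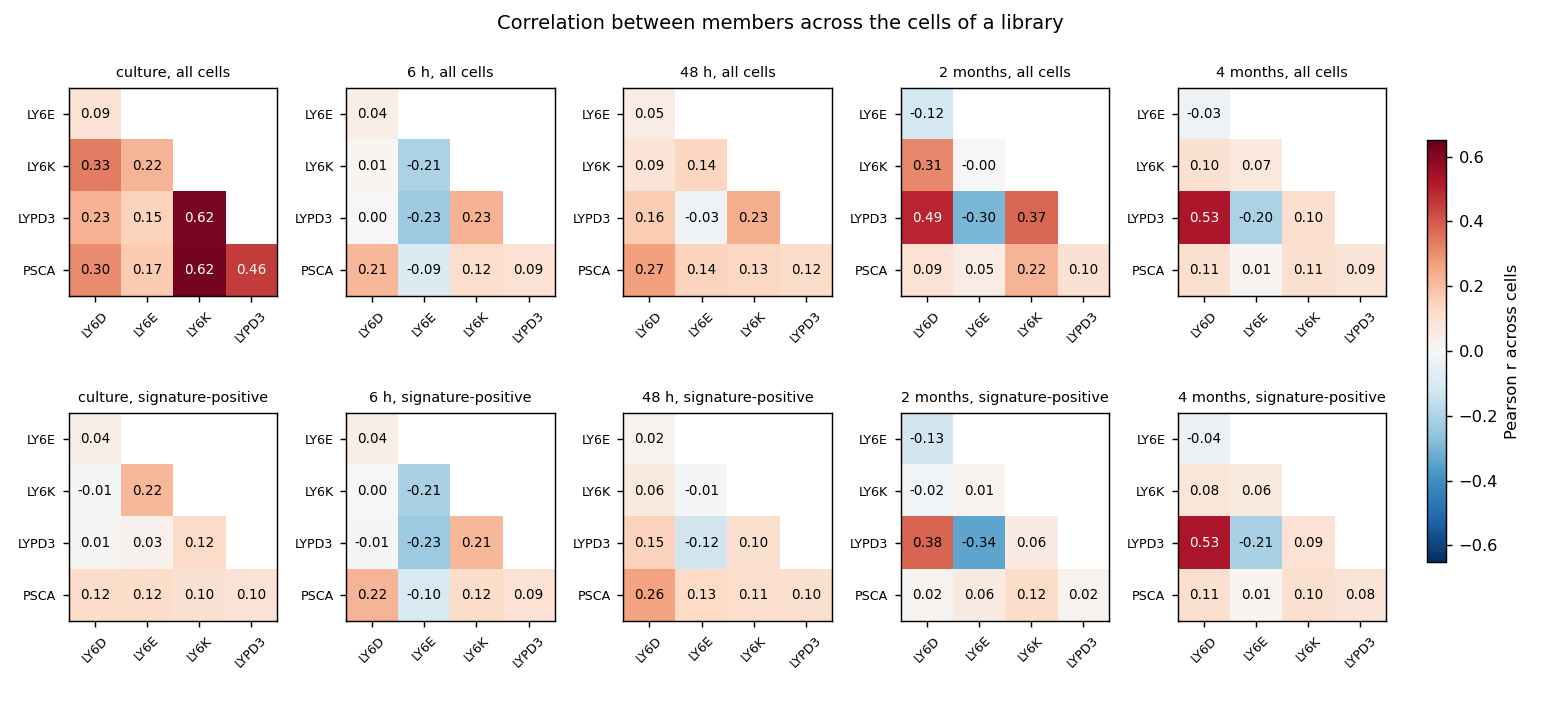
Pearson's r between members across the cells of each library, on log counts per 10000 UMIs, for all cells (upper row) and signature-positive cells (lower row), with red above 0 and blue below 0. LY6K with LYPD3 goes from 0.62 in all cultured cells to 0.12 in the signature-positive ones, while LY6D with LYPD3 is 0.53 at 4 months in both rows.

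Dividing cells, those with a UMI of MKI67 or TOP2A, had less of LY6D, LYPD3 and PSCA in the late libraries. This call depends on depth and on class, so the values are given within signature-positive cells, a restriction chosen after the data were seen. At 4 months LY6D was at 741 CPM in 903 dividing cells and 1982 CPM in 3525 other cells, a ratio of 2.67. LYPD3 was at 146 against 437 CPM, a ratio of 2.99, and PSCA at 6.68 against 25.01 CPM, a ratio of 3.75. LY6K differed little, with 275 against 297 CPM, and LY6E was higher in the dividing cells, 403 against 267 CPM.

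The same pattern was present at 2 months, where other cells exceeded dividing ones 2.42-fold for LY6D, 2.75-fold for LYPD3 and 4.09-fold for PSCA, and LY6E was at 381 CPM in dividing and 295 CPM in other cells. At 48 h the ratios were 2.10 for LY6D, 1.99 for LYPD3 and 2.48 for PSCA. At 6 h LYPD3 had a ratio of 1.52 and LY6D 1.03, and LY6E was lower in dividing cells (122 against 173 CPM), opposite to the later libraries. Over all cells the ratios at 2 months were 4.28 for LY6D, 4.82 for LYPD3, 7.17 for PSCA and 2.16 for LY6K, with the 628 signature-negative cells included, and at 4 months they were 2.67, 2.99 and 3.74 for LY6D, LYPD3 and PSCA. With dividing cells called at 3000 UMIs, which found 6.35% of signature-positive cells dividing at 4 months in place of 20.4%, the ratios at 4 months were 3.05 for LY6D, 3.18 for LYPD3 and 2.92 for PSCA.

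**Figure D5:**
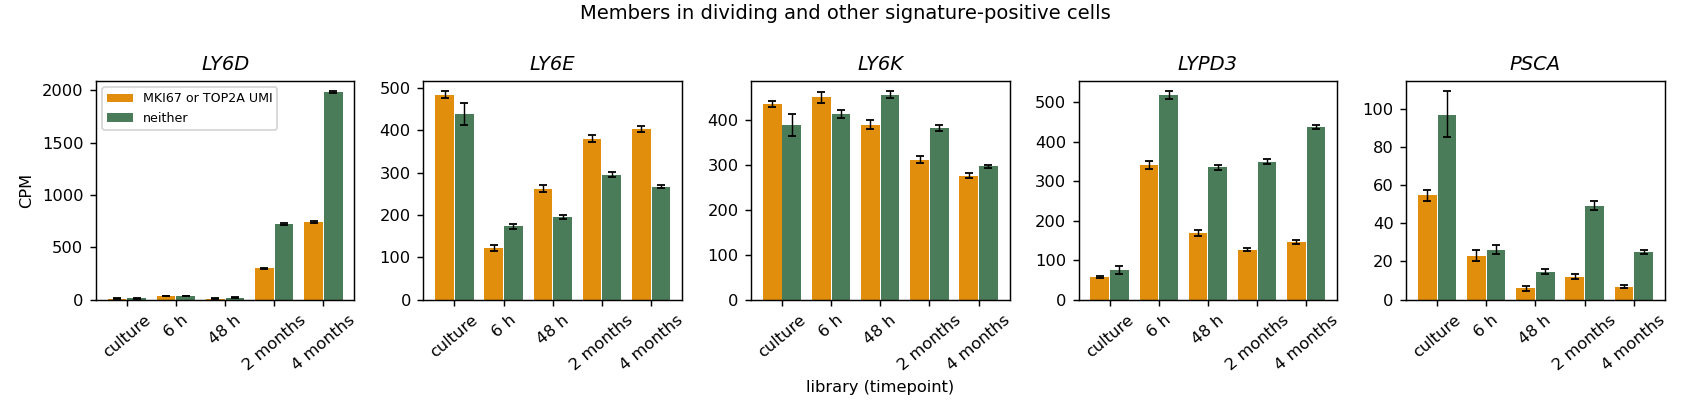
Level of each member in CPM in signature-positive cells with a UMI of MKI67 or TOP2A (orange bars) and with neither (green bars), by library, with 95% Poisson intervals and a separate vertical axis for each gene. At 4 months LY6D is at 741 CPM in dividing cells and 1982 CPM in the others, while LY6E is at 403 and 267 CPM.

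The genes whose pattern across cells was most like that of a member were sought among 9552 genes found in at least 5% of the cells of every lung library, by the mean r over all cells of the 4 lung libraries. For LYPD3 they included PERP (mean r 0.525), a desmosomal protein, SFN (0.522), a keratinocyte 14-3-3 protein, DSC2 (0.452), a desmosomal cadherin, and CLDN4 (0.452), a tight junction claudin. For LY6D they were CLIC3 (0.333), FXYD3 (0.323), CRABP2 (0.312), HSPB1 (0.306) and S100A6 (0.305), and LYPD3 stood at place 7 in that order. For LY6K they were CLDN4 (0.359), S100A6 (0.351), CLDN7 (0.338), KRT19 (0.334) and S100A11 (0.333), and for PSCA MAL2 (0.323), LMO7 (0.314), ELF3 (0.306), CLIC3 (0.297) and MUC16 (0.289). LY6E stood apart with LDHB (0.420), UQCRH (0.358), SLC25A5 (0.348), RANBP1 (0.338) and NME2 (0.328), genes of energy metabolism, nuclear transport and nucleotide supply, and LYPD3 ranked 9535 of 9552 for it. With cells thinned to 3000 UMIs, 3 of the top 5 for LY6D were in the top 5 again, 1 for LY6E, 4 for LY6K, 4 for LYPD3 and 2 for PSCA. The order also depended on the library. For LY6K the mean rested most on 2 months, where the 628 signature-negative cells lie, with r of 0.737 for S100A6 and 0.727 for KRT19 there, against 0.139 and 0.171 at 4 months. Of its 5 genes, 0 were in the top 5 at 6 h alone or 48 h alone, 3 at 2 months alone and 1 at 4 months alone. For the other members 0 to 4 of the 5 genes were in the top 5 of any 1 library, and 21 of 25 such alternatives over the 5 members moved the list.

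Genes of squamous differentiation were mostly higher at 4 months than in culture. At 4 months 16 of 18 tested genes of this list were higher than in the parental library and 0 were lower, with a median log2 ratio of 4.34, beside 13.3% of all genes higher and a median of -0.45. In signature-positive cells 13 of 18 were higher with a median of 2.69, beside 7.93% and -0.24. At 2 months 7 of 14 tested were higher than at 48 h and 1 was lower, beside 10.5% of all genes higher. SPRR1B, a cornified envelope precursor, went from 0.991 to 335 CPM, and DSP, desmoplakin, from 62.8 to 306 CPM, while KRT10 was at 387 and 393 CPM. EMP1 was at 9.85 CPM in culture and 104 CPM at 4 months, but at 624 CPM at 6 h, 255 at 48 h and 42.1 at 2 months. Its log2 ratio of 4 months to culture in signature-positive cells was 0.72, not past 2-fold. Across signature-positive cells SPRR1B had r with LYPD3 of 0.49 at 2 months and 0.46 at 4 months, and with LY6D of 0.39 and 0.26. With LY6E it had -0.27 and -0.33. Over the 10 genes of the list that could be followed in all lung libraries, the median r at 2 months over all cells was 0.41 with LYPD3, 0.30 with LY6D, 0.22 with LY6K, 0.13 with PSCA and -0.17 with LY6E, and none of the 10 was positive with LY6E at 2 months or 4 months. These medians include the 628 signature-negative cells. For LY6K the r at 2 months went from 0.37 over all cells to 0.02 in signature-positive cells with DSP, from 0.24 to 0.04 with EMP1 and from 0.16 to -0.07 with SPRR1B, and its median over the list was 0.04 at 4 months.

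Basal layer genes were higher at 4 months than in culture in 13 of 14 cases, with 0 lower and a median log2 ratio of 3.25, beside 13.3% of all genes higher and 30.1% lower. In signature-positive cells 6 of 14 were higher and 0 lower with a median of 0.68, beside 7.93% of all genes higher. KRT17 went from 0.488 to 10139 CPM and KRT14 from 0.0488 to 1006 CPM. Within the 4-month library, however, these keratins did not follow LY6D alike. Across signature-positive cells LY6D had r of 0.44 with KRT5 and 0.32 with KRT17, but -0.18 with KRT14. The median r of LY6D over 12 basal genes was 0.12 at 2 months and -0.23 at 4 months over all cells.

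Binding partners of LYPD3 were present in the same libraries. Of 8 partners, 7 were tested at 6 h against culture and 7 were higher, with a median log2 ratio of 3.60, and 8 of 8 were higher at 4 months, beside 18.2% and 13.3% of all genes higher. In signature-positive cells 5 of 7 were higher at 6 h with a median of 1.48, and 4 of 8 at 4 months with a median of 0.88, beside 11.4% and 7.93% of all genes. LGALS3, galectin-3, was at 91.3 CPM in the parental library, 897 CPM at 6 h, 682 CPM at 48 h, 823 CPM at 2 months and 1719 CPM at 4 months. LAMB3, a laminin subunit, reached 880.3 CPM at 48 h and was at 15.8 CPM at 2 months. ITGA6, an integrin subunit of hemidesmosomes, was at 403 CPM at 6 h and 86.5 CPM at 2 months. LAMB3 had r with LYPD3 of 0.41 at 6 h and at 48 h in signature-positive cells, and -0.20 at 4 months.

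Interferon-stimulated genes, the group that LY6E belongs to by its induction, differed among themselves in direction. At 6 h against culture 3 of 9 tested were higher and 4 lower, beside 18.2% of all genes higher and 26.6% lower. At 4 months 7 of 12 were higher and 3 lower with a median log2 ratio of 1.80, beside 13.3% and 30.1% of all genes. In signature-positive cells 2 of 6 were higher and 1 lower at 6 h, beside 11.4% of all genes higher and 11.6% lower. At 4 months 6 of 10 were higher there and 1 lower with a median of 2.28, beside 7.93% and 14.5%. IFITM3 went from 26.5 CPM in culture to 111 CPM at 6 h and 627 CPM at 4 months, and IFI27 from 0.664 CPM to 0.522 and 316 CPM. ISG15 was at 16.8, 134 and 88.3 CPM, and IFITM2 at 119.0, 0.830 and 1.43 CPM. In signature-positive cultured cells IFITM3 was already at 111 CPM. Its log2 ratios to culture in that class were -0.0014 at 6 h and 2.48 at 4 months. Those of ISG15 were 1.31 and 0.72, those of IFITM2 -3.19 and -2.60, and IFI27 had 8.14 at 4 months. IFITM3 had r with LY6E of 0.40 at 6 h and 0.39 at 4 months in signature-positive cells, and with LYPD3 of -0.15 and -0.37. ISG15 did not follow LY6E in this way, with r of -0.001 in that class at 6 h and 0.03 after 4 months. IFI27 had r with LY6E of 0.01 after 4 months. At 6 h IFI27 and IFITM2 had r of -0.02 and 0.09, but at 0.522 and 0.830 CPM. IFITM2 had 0.06 after 4 months, at 1.43 CPM. With so few counts r stays near 0, so these values cannot show whether the genes follow LY6E. Over 8 listed genes followed in all lung libraries, the all-cell median r with LY6E ranged from -0.004 (2 months) to 0.087 (4 months). Over all genes compared, the medians in these libraries were 0.017 and 0.025. At 6 h the list had 0.023 beside -0.080 over all genes, and at 48 h 0.025 beside 0.023.

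Of 26 other genes of the superfamily, 25 were in the tables and 5 reached 10 CPM in a library, while 11 stayed below 1 CPM in all. CD59, which blocks the membrane attack complex of complement, was at 75.4 CPM in culture, 321 CPM at 6 h and 152 CPM at 4 months, and PLAUR, the urokinase receptor, at 19.5, 158 and 76.7 CPM with its highest level of 274 CPM at 48 h. LYPD1 was highest in culture, at 70.6 CPM, against 6.21 CPM at 6 h, 5.75 CPM at 48 h, 15.1 CPM at 2 months and 0.550 CPM at 4 months. Its log2 ratio of 2 months to 48 h was 1.25 over all cells and -1.28 in signature-positive cells. In signature-positive cells CD59 had log2 ratios to culture of 1.11 at 6 h and 0.03 at 4 months. Those of PLAUR were 1.41 and 0.37, and those of LYPD1 -1.59 and -3.79. In that class 2 of 3 tested genes of the list were higher and 1 lower at 6 h, beside 11.4% and 11.6% of all genes. At 4 months 2 of 5 were higher and 1 lower, beside 7.93% and 14.5%. LY6G6C went from 0.151 to 28.3 CPM, and its r with LYPD3 was 0.33 at 2 months and 0.37 at 4 months in signature-positive cells. SLURP2, which is outside the rule for named genes and was chosen after its values were seen, went from 0.0244 to 13.2 CPM. SLURP2 lies beside LYNX1 and shares readthrough transcripts with it, so the split of UMIs between them is uncertain.

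Genes that build and attach the GPI anchor were mostly within 2-fold. At 6 h against culture 1 of 20 tested was higher and 7 lower, beside 18.2% of all genes higher and 26.6% lower. At 4 months 2 of 22 were higher and 7 lower, beside 13.3% and 30.1% of all genes, with a median log2 ratio of -0.46 beside -0.45, so that the share that was lower was close to that of all genes. In signature-positive cells 2 of 19 were higher and 2 lower at 6 h, beside 11.4% and 11.6% of all genes. At 4 months 0 of 21 were higher there and 1 was lower, beside 7.93% and 14.5%. DPM2 and DPM3, subunits of dolichol-phosphate mannose synthase, were at 119 and 62.5 CPM in culture and 79.2 and 29.9 CPM at 4 months. DPM1 was at 30.0 and 45.3 CPM, and GPAA1, of the GPI transamidase, at 74.8 and 52.0 CPM.

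LY6D, LY6K, LY6E and PSCA lie together on chromosome 8 of GRCh38. PSCA spans 142670308 to 142682725 on the plus strand, LY6K 142700111 to 142705127 on the plus strand, LY6D 142784882 to 142786539 on the minus strand and LY6E 143017982 to 143023832 on the plus strand, so that the 4 genes fall within 353.525 kb. LY6D, LY6K and PSCA have 3 exons each in the canonical transcript and LY6E has 4.

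Beside these 4 genes, 68 genes of the tables lie within 1 Mb of them, of which 8 are among the other genes of the superfamily described above, and the remaining 60 were taken as neighbours. At 6 h against culture 18 of the 60 were tested, with 5 higher and 2 lower and a median log2 ratio of 0.29, beside 18.2% of all genes higher and 26.6% lower. At 4 months 20 were tested, with 8 higher and 1 lower and a median of 0.66, beside 13.3% and 30.1% of all genes. In signature-positive cells 0 of 18 were past 2-fold at 6 h, where 11.4% of all genes were higher and 11.6% lower. At 4 months 3 of 21 were higher there and 0 lower with a median of 0.28, beside 7.93% and 14.5% of all genes. EEF1D, a translation factor, was at 678 and 1084 CPM in culture and at 4 months, PLEC, plectin, at 40.5 and 134 CPM, PUF60, a splicing factor, at 124 and 116.6 CPM, and GRINA at 161 and 115 CPM. In signature-positive cells their log2 ratios of 4 months to culture were 0.23, -0.53, 0.38 and -0.01 in that order.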

How the data were processed

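RNA was measured by 10x 3′ single-cell sequencing in 5 libraries, 1 per timepoint. The authors deposited raw counts of UMIs per gene and called barcode, before their quality filter. The submitters' processing notes name Cell Ranger 3 and GRCh38, and the matrix headers version 3.0.2. The filter of the study was applied, no doublets were removed, and UMIs were summed into CPM over all cells or by class. Each sum gave a log2 ratio with 1 CPM added, over genes that reached 10 CPM in 1 or both groups, and a gene past 2-fold was called. No test was possible with 1 library per group, and p-values are not given. Shares of cells and co-detection used cells thinned at random to 3000 UMIs, which left out 157 parental cells and 123, 76, 88 and 281 cells in the lung libraries in order of time. Correlations used log counts per 10000 UMIs. Python 3.11.15, numpy 2.4.6, scipy 1.17.1, pandas 2.3.3 and matplotlib 3.10.9 were used, and ratios and thinning were tested on simulated data. Gene positions were taken from GENCODE 44 (GRCh38) by identifier, for 33113 of 33538 genes, and promoters from RefSeq on GRCh38.p14, where 1 of the members matched. The named genes are the 5 members, the 4 genes of each list with the highest CPM in any library, and the 5 genes most like each member. The members and lists were chosen with earlier results of these data known. Alternatives were other scalings, filters, thresholds, added CPM, depths and equal weight for cells. A few single-gene results were left out of the text.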

Additional observations from a re-analysis of the deposited data

Results flagged for a closer look

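LY6E in signature-positive over signature-negative cells had a log2 ratio of -1.26 at 6 h (154 against 370 CPM), while the ratio was above 0 in the other 4 libraries, from 0.22 at 2 months to 2.85 at 48 h. It drew attention because 1 library went in the opposite direction from the rest. The difference between libraries was not tested. At 6 h the signature-negative class was 42 cells with a median of 1931 UMIs and 60 LY6E UMIs, and at 48 h it was 51 cells with 3 LY6E UMIs, so both ratios rest on few counts.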

How the results depend on the processing

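No paired analysis was possible because each timepoint has 1 library, and for the same reason no replicate could be left out. Of 470 alternative log2 ratios of members, 356 moved by less than the counting interval of the ratio, 114 moved further and 0 called values changed sign. The number of members past 2-fold kept within 1.5 times its value in 96 of 110 alternatives. With 5 CPM added it was 1 for 48 h against 6 h and 1 for 2 months against 48 h, in place of 2 each. With a minimum of 50 CPM it was 3 for 6 h against parental (5 otherwise), 0 for 48 h against 6 h and 1 for 2 months against 48 h. For 48 h against 6 h it was 1 with equal weight for each cell and 1 without the deepest 5% of cells. For 2 months against 48 h it was 1 with at most 10% mitochondrial UMIs. For 4 months against 2 months it was 2 with median of ratios scaling, which put LYPD3 at a log2 ratio of 1.11, and 2 at a fold of 1.5. At a fold of 4 it was 3 for 6 h against parental, 0 for 48 h against 6 h, 1 for 2 months against 48 h and 1 for 6 h against parental in signature-positive cells (4 otherwise).

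The number of all genes past 2-fold moved more, as from 3962 at 6 h against parental to between 1529 and 6324, from 347 at 48 h against 6 h to between 32 and 1358, from 2088 at 2 months against 48 h to between 588 and 3998, from 905 at 4 months against 2 months to between 180 and 2398, and from 3747 at 4 months against parental to between 1400 and 6118. Within classes it moved from 2630 to between 937 and 4629 in the parental library, from 1853 to between 356 and 3718 at 6 h and from 1774 to between 499 and 3529 at 4 months, where the folds of 1.5 and 4 are included. Median of ratios scaling put the share of calls that were higher at 51.2% in place of 40.7% for 6 h against parental, 56.6% in place of 70.9% for 48 h against 6 h, 47.0% in place of 27.0% for 4 months against 2 months, 44.8% in place of 30.6% for 4 months against parental and 52.3% in place of 41.9% between the parental classes. It was 45.3% in place of 35.3% for 4 months against parental in signature-positive cells. Without mitochondrial and ribosomal protein genes that share was 60.1% for 48 h against 6 h, 59.1% in place of 42.3% for 2 months against 48 h and 35.6% in place of 49.5% for 6 h against parental in signature-positive cells. The cause was not tested. The median of all genes for 6 h against parental was -0.24, -0.39 without those genes and -0.0026 with median of ratios. LY6E at 48 h against 6 h, not past 2-fold, was 0.48 and was -0.12 with equal weight for each cell. Depth limits LY6D and PSCA in the shallow signature-negative cells, where 0 to 2 UMIs were counted at 6 h and 48 h.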
